A study of Mus musculus with 30 samples.

Results

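The comparison concerned cultured cells at day 28 and mature myeloid cells sorted from blood. Its members were 7 of the 30 RNA sequencing libraries of the series, chosen by their titles: 3 of adherent FGRS cells sorted as KLS and 4 of Gr1+Cd11b+ cells. FGRS is short for Fosb, Gfi1, Runx1 and Spi1, the transcription factors the study used to convert adult mouse endothelial cells. The FGRS libraries were annotated as haematopoietic stem cells in co-culture with HUVEC (human umbilical vein endothelial cells), with no tissue given, and KLS is the gate for cells that carry Kit and Sca1 and lack lineage markers. The Gr1+Cd11b+ libraries were annotated as blood myeloid-lineage cells freshly isolated from tissue. Of these, 2 came from wild type controls and 2 were titled rEC with the genotype given as derived, taken here as progeny of converted endothelium. All were mouse cells purified by flow cytometry. No age or strain was used, and no label said whether replicates came from separate animals or cultures. Culture, gate and tissue of origin all differed together between the groups and cannot be told apart.

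As background, neutrophils and monocytes form in marrow in steps that leave a record in their transcripts. Promyelocytes make the enzymes of primary (azurophil) granules, later precursors make secondary and then tertiary granule proteins, and circulating neutrophils have closed down the early genes and carry chemoattractant receptors and S100 proteins. Macrophages arise from monocytes or from embryonic precursors and are known by the CSF1 receptor, complement C1q, scavenger receptors and a large lysosomal compartment. Haematopoietic stem and progenitor cells are marked by Kit, Cd34 and factors such as Gata2, Erg, Meis1 and Hoxa9. Dividing cells in culture take up amino acids and glucose and make sterols and ribosomes at rates that blood granulocytes, which do not divide, do not need.

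The FGRS cells held much more transcript than blood cells for the primary granule enzymes Mpo, Elane, Ctsg and Prtn3, for Spp1 and the C1q chains of macrophages, for progenitor genes such as Cd34 and Myb, and for every cell cycle gene examined. Most mature neutrophil, blood monocyte and interferon-response genes tested were lower in them. Macrophage identity genes were mixed: of 21 tested 9 rose and 7 fell, with Csf1r and Adgre1 among those that fell. Of 14083 genes tested with limma on log2(FPKM + 1), 8943 passed at an adjusted p of 0.05 (63.5%), 5821 of them higher in FGRS cells (41.3%) and 3122 lower (22.2%). At a log2 difference of 1 or more, 4109 were higher (29.2%) and 1998 lower (14.2%). FPKM are fragments scaled by transcript length and by mapped fragments, and FGRS values did not overlap the myeloid values in 9948 genes (70.6%), lying above them in 6586 (46.8%) and below in 3362 (23.9%). Shares of this size mean that a list counts for little unless its share lies well away from them. The split of calls depended on scaling. Higher calls made up 65.1% of all as deposited, 50.2% after quantile normalisation and 48.8% after median-of-ratios scaling, and the median over all genes moved from 0.27 to −0.01 and 0.01. Differences near 0.27 on the log2 scale thus have no firm direction. All log2 differences below are on the log2(FPKM + 1) scale, which understates changes of low genes, and are FGRS minus the mean of the control and rEC myeloid groups, given with the SE.

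**Figure D1:**
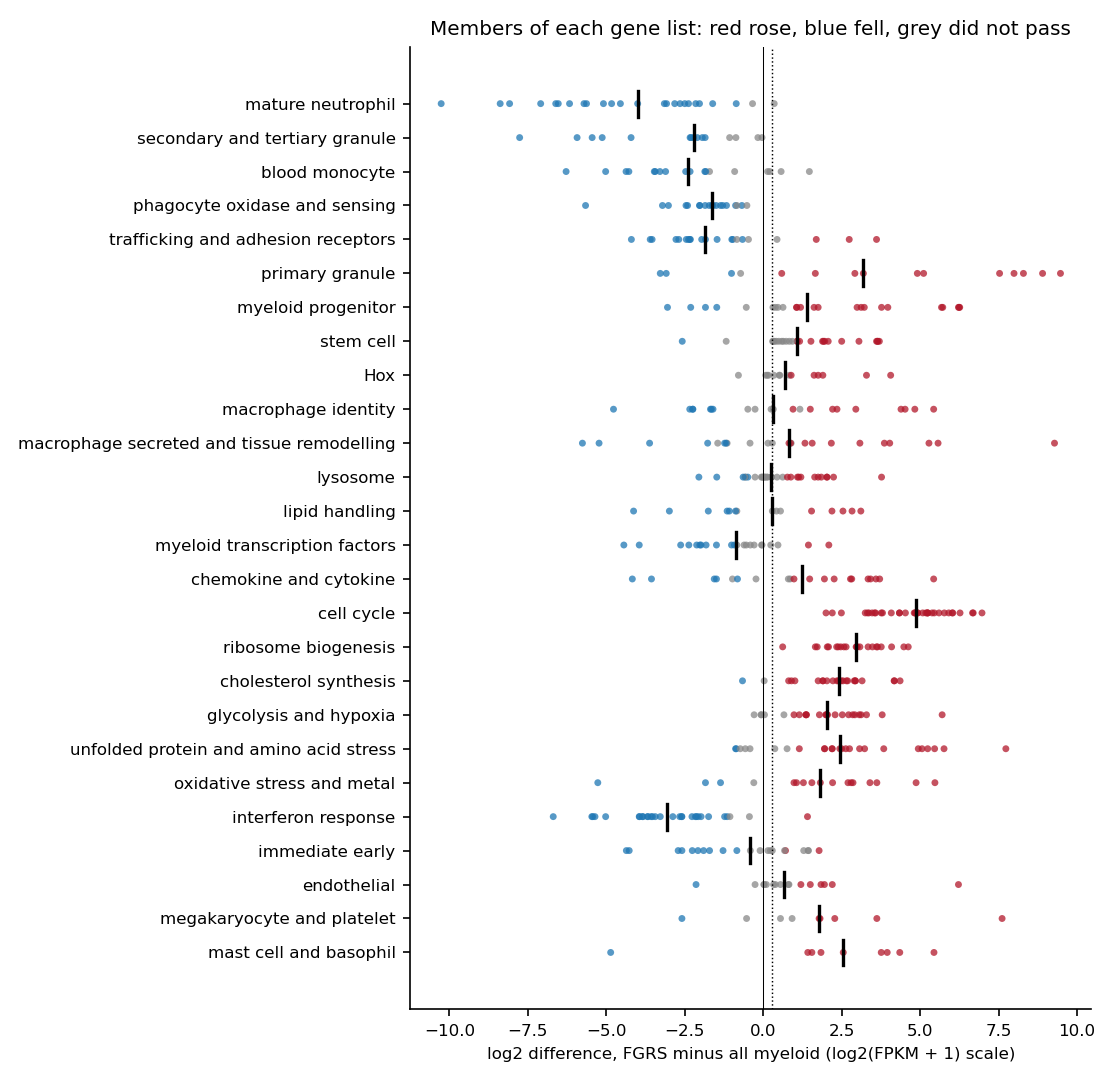
Log2 difference of every tested member of 26 gene lists (1 point per gene), FGRS minus all myeloid. Black bars are list medians and the dotted line is the median over all genes (0.27). All 36 cell cycle members lie to the right, and 27 of 30 interferon members fell.

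Summed FPKM ran from 510115 to 596726 in the myeloid libraries and from 588399 to 717141 in the FGRS libraries, and 10165 to 10418 and 11022 to 11239 genes reached 1 FPKM. Depth relative to control replicate 1, read from the value of a single fragment in low genes, was 1.01 to 1.099 in the other myeloid libraries and 1.14 to 1.241 in the FGRS libraries. FGRS replicate 1 stood apart from replicates 2 and 3. Pearson's r of log2 values across genes was 0.9657 and 0.9673 for replicate 1 against the others, 0.9917 between the others, 0.9778 to 0.9921 among myeloid libraries and 0.7253 to 0.7736 between FGRS and myeloid libraries. Of the genes tested, 395 were more than 1 log2 unit lower in replicate 1 than in both other FGRS libraries and 240 more than 1 higher, so results on macrophage and progenitor genes are also given without it. Among myeloid libraries, rEC replicate 2 held the most of several neutrophil transcripts. In bulk RNA, fewer cells of a type and less RNA per cell cannot be told apart.

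Of 6 sorting antigen genes tested, Kit and Ly6a rose, Itgam and Ptprc fell and 2 did not pass. Kit, which encodes the receptor for stem cell factor, stood at 32.9, 12.3 and 11.6 FPKM in FGRS replicates 1, 2 and 3, against 0.106 and 0.281 in the control and 0.114 and 1.93 in the rEC myeloid libraries. All 3 FGRS libraries lay above all 4 myeloid libraries, and Kit rose by 3.6 ± 0.31 (limma adjusted p = 1.54e-09). Ly6a, which encodes Sca1, stood at 104, 99.1 and 72 FPKM against 9.61 to 14.2 in myeloid libraries, also without overlap (2.8 ± 0.63, limma adjusted p = 0.000476). Itgam, which encodes CD11b, was highest in the blood cells at 382 to 412 FPKM and still stood at 51.5, 115 and 111 in the FGRS libraries. It fell by 2.2 ± 0.42 (limma adjusted p = 7.8e-05). Ptprc, the pan-leukocyte antigen CD45, fell by 2.95 ± 0.29, from 635 ± 74.9 to 81.3 ± 8.73 FPKM (mean ± SD, n = 4 and 3). Of the Gr1 epitope genes, Ly6g has no entry in the table, and Ly6c2 (FGRS 155, 259 and 368, myeloid 279 to 312 FPKM) and Ly6c1 (FGRS 1.42, 4.8 and 6.68, myeloid 6.9 to 13.4 FPKM) did not pass. The highest Ly6c2 value of the 7 libraries was in FGRS replicate 3. Itgam and Ly6c2 transcripts were thus present in cells gated as lacking lineage markers.

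Of the 4 conversion factors, only Gfi1 passed as higher and only Spi1 as lower. Gfi1, a zinc finger repressor of granulocyte development, stood at 10.6, 15.1 and 12.9 FPKM in FGRS cells and 0.0825 to 0.75 in blood cells, a rise of 3.24 ± 0.43 (limma adjusted p = 7.73e-07). Spi1, which encodes PU.1, the main ETS factor of myeloid cells, stood at 168, 301 and 253 FPKM against 627 to 823, and fell by 1.55 ± 0.45 (limma adjusted p = 0.00455) without overlap. Fosb stood at 8.46, 12 and 8.34 FPKM in FGRS and 19.8, 27, 13.7 and 5.47 in myeloid libraries (adjusted p = 0.573), and Runx1 at 18.1, 11.9 and 12.7 and 12.7, 10.9, 14.5 and 13.2 (adjusted p = 0.736), both with overlap. FPKM do not separate a delivered transcript from the native one, and no label says whether the delivered factors were still expressed at day 28.

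The neutrophil genes divided largely by granule stage. Most primary granule genes rose in FGRS cells, while most late granule and mature neutrophil genes fell. Mpo, which encodes myeloperoxidase (chromosome 11, 87793581 to 87804413, mm10), stood at 659.8, 1172 and 910.04 FPKM in FGRS libraries and 0.187, 0.341, 0.296 and 0.19 in control and rEC myeloid libraries. It had the largest rise among the genes named, 9.47 ± 0.76 (limma adjusted p = 5.65e-10). The serine proteases lay next to it. Elane, neutrophil elastase, stood at 234, 798 and 658 FPKM against 0.121 to 1.17 (rise 8.29 ± 0.69), Ctsg, cathepsin G, at 599.9, 1099 and 975 against 0.456 to 1.2 (8.9 ± 0.68), and Prtn3, proteinase 3, at 969.6, 1720.2 and 1842 against 3.61 to 22.1 (7.53 ± 0.49). Each was lowest in FGRS replicate 1, and every FGRS value lay above every myeloid value. Ms4a3, a membrane protein gene of granulocyte and monocyte precursors, stood at 159.6, 356 and 318 FPKM and was listed at 0 in 3 of 4 myeloid libraries, with 0.151 in rEC replicate 2.

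Of the 15 primary granule members tested, 11 rose, 3 fell and 1 did not pass (median 3.19, against 0.27 over all genes), and the same numbers held without FGRS replicate 1. Cst7, a cystatin that inhibits cathepsins, rose by 5.11 ± 0.92, Prss57, a granule protease, by 2.92 ± 0.23 and Serpinb1a, the inhibitor of elastase and cathepsin G, by 3.19 ± 0.42. The members that fell were Lyz2, Igsf6 and Srgn. Lyz2, lysozyme, stood at 294, 1969 and 1688 FPKM in FGRS cells and 8522 to 10341 in blood, and fell by 3.28 ± 0.89 (limma adjusted p = 0.00264). With Lyz2 in it, the list summed to 4103, 8927 and 8021 FPKM in FGRS replicates 1, 2 and 3 and to 12145, 12321, 12238 and 11195 in the myeloid libraries, so that the sum was higher in every blood library. The ETS-type motif GAGGAAGT, a PU.1 site, was searched on both strands of the 250 bases before each start in RefSeq. It stood in the promoters of 4 of 13 primary granule genes with an entry (26.7% of promoters, against 2.44% of all), namely Mpo, Elane, Prtn3 and Ctsc. This motif was 1 of 13 searched in several lists, and a match describes the letters of the window and not a bound site. Control by PU.1 was not tested. For reference, the control LKS-SLAM stem cell libraries held 532 ± 309 FPKM of Mpo, 354 ± 230.5 of Elane and 514 ± 182 of Prtn3 (mean ± SD, n = 3).

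None of the 15 genes in the secondary and tertiary granule list rose and 11 fell (median −2.22). Mmp9, gelatinase B of the tertiary granule, stood at 1.33, 7.51 and 2.4 FPKM against 674, 808, 1028 and 1081, and fell by 7.76 ± 0.35 (limma adjusted p = 7.44e-14). Cd177, a neutrophil surface glycoprotein, stood at 0.0306, 6.75 and 0.774 FPKM against 87.4 to 129 (fell by 5.45 ± 0.52). Arg2, an arginase gene placed in this list, stood at 0.127, 0.755 and 1.51 against 77.2 to 134 (fell by 5.93 ± 0.21). Camp, Ngp and Ltf, which encode secondary granule proteins, were among the 4 members that did not pass. Camp, the cathelicidin, stood at 0.195, 205 and 15.1 FPKM in FGRS replicates 1, 2 and 3 and at 42.3, 12, 4.06 and 23.8 in the myeloid libraries, so that FGRS replicate 2 was the highest of all 7 and replicate 1 the lowest. Ngp, neutrophilic granule protein, stood at 1.13, 213 and 16.9 against 72.7, 25.8, 9.16 and 89.5, and Ltf, lactoferrin, at 0.0606, 34.9 and 3.73 against 26.7, 7.02, 3.38 and 19.5, with the same order. The limma adjusted p were 0.99, 0.544 and 0.278, and without FGRS replicate 1 their differences were 1.82, 0.76 and 0.13 in place of −0.04, −0.87 and −1.07. Without FGRS replicate 2, Ngp and Ltf passed as lower (limma adjusted p = 0.0427 and 0.00806). Lcn2, which binds bacterial siderophores, fell by 2.1 ± 0.71 (adjusted p = 0.0128), a call lost without FGRS replicate 1 (adjusted p = 0.141) or rEC replicate 2 (0.0803).

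Of 25 mature neutrophil genes tested, 23 fell and none rose (median −4.0), and without FGRS replicate 1 the number that fell was 21. Retnlg, a resistin-like protein of neutrophils (chromosome 16, 48872621 to 48874496), stood at 0.0952, 3.1 and 0.0866 FPKM in FGRS libraries and 1365, 1558, 1694 and 5256 in blood, the largest fall among the named genes (10.26 ± 0.44, limma adjusted p = 2.44e-14). Il1b, interleukin 1 beta, stood at 5.51, 3.66 and 5.4 FPKM against 2019, 1853, 1828 and 2005 and fell by 8.38 ± 0.33. Several receptors were among the members that fell. Cxcr2, the chemokine receptor for neutrophil recruitment, stood at 5.77, 5.54 and 6.42 FPKM against 599.5 to 881, Fpr1, the formyl peptide receptor, at 0, 0.328 and 0.315 against 125 to 261, and Csf3r, the receptor for the growth factor G-CSF, at 36.2, 29.4 and 26.5 against 1944 to 2517. Each fell without overlap, by 6.61 ± 0.21, 7.09 ± 0.27 and 6.17 ± 0.4. S100a8 and S100a9, the calprotectin subunits, fell by 5.63 ± 1.09 and 6.53 ± 1.12 but varied most among FGRS libraries. S100a9 stood at 21.8, 1395 and 328 FPKM in FGRS replicates 1, 2 and 3 against 14122, 16173, 18486 and 39217 in blood, so that replicate 2 again held the most late neutrophil RNA. The protease inhibitor gene Stfa2l1, also of this list, fell by 8.08 ± 0.39. Outside the lists, the protease gene Asprv1 fell by 6.67 ± 0.24. Slfn1 and Slfn4 of the Schlafen family fell by 7.81 ± 0.9 and 6.51 ± 0.25, and Cd101, Ifi27l2a and the class I gene H2-Q10 fell by 6.72 ± 0.38, 6.61 ± 0.53 and 7.7 ± 0.5.

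**Figure D2:**
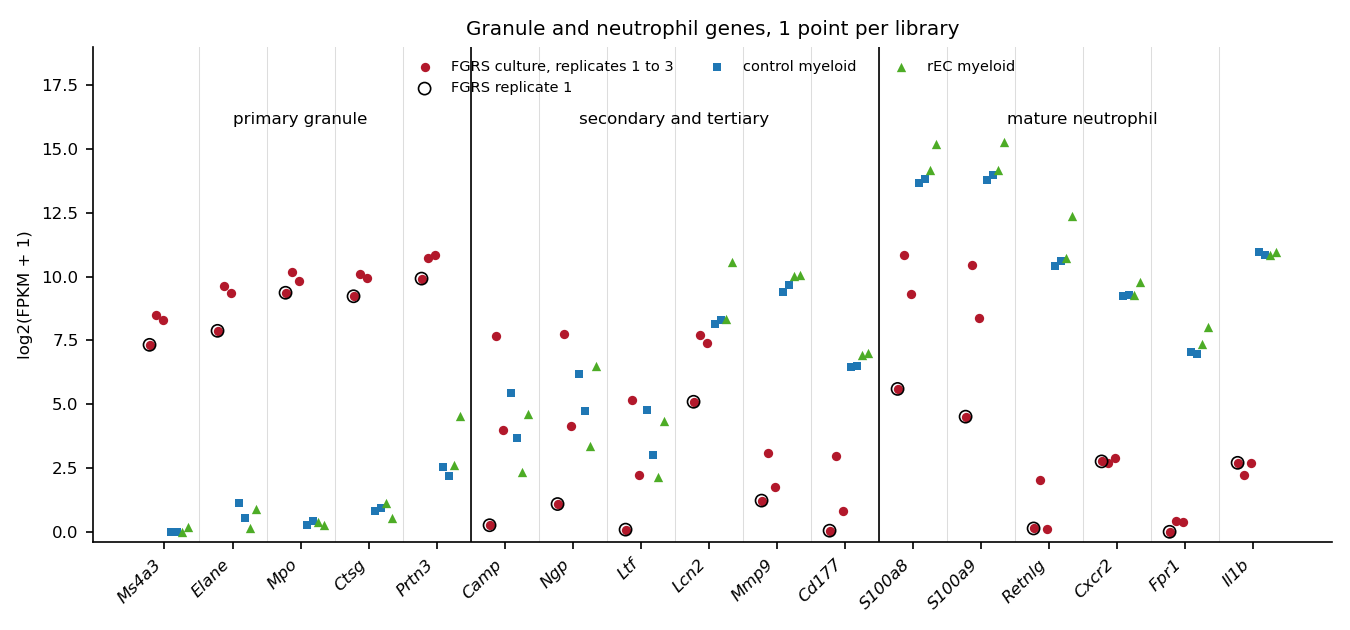
Log2(FPKM + 1) of 17 granule and neutrophil genes, 1 point per library; the ringed point is FGRS replicate 1. The 5 primary granule genes are higher in every FGRS library than in any myeloid library, mature neutrophil genes are highest in blood, and the FGRS points for Camp, Ngp and Ltf span the myeloid points.

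Blood monocyte genes were also lower in the culture, though not all of them. Of 18 tested, 12 fell and none rose at the threshold (median −2.4). Treml4, a receptor of nonclassical monocytes, stood at 0.932, 1.78 and 1.68 FPKM in FGRS libraries and 106, 125, 54 and 50.6 in blood (fell by 5.02 ± 0.41, limma adjusted p = 8.36e-10), and Cx3cr1, the fractalkine receptor, at 6.06, 6.7 and 6.59 and 96.4, 101, 100.4 and 45.2 (fell by 3.47 ± 0.64). Ms4a4c fell by 4.28 ± 0.14 with little spread in either group. Ccr2, the receptor that brings classical monocytes out of marrow, kept 76.9, 80.1 and 90.7 FPKM in FGRS cells against 225, 207, 438 and 409 in blood and fell by 1.86 ± 0.55 (adjusted p = 0.00502). F13a1, the clotting factor XIII subunit of monocytes, stood at 82.7, 118 and 169 against 181, 192, 279 and 256 and did not pass (adjusted p = 0.121). Without FGRS replicate 1, 12 members again fell and 2 rose.

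Genes of killing, sensing and movement fell broadly. Of 19 phagocyte oxidase and sensing genes 17 fell and none rose (median −1.63); 13 fell without FGRS replicate 1. Clec7a, the beta-glucan receptor dectin-1, stood at 4.0, 12.9 and 14.5 FPKM against 588, 513, 499.7 and 475 and fell by 5.66 ± 0.45 (limma adjusted p = 5.2e-10). The inflammasome sensor Nlrp3 fell by 3.21 ± 0.23 and the bacterial sensor Nod2 by 3.02 ± 0.19. The oxidase subunit Cybb, counted in the secondary and tertiary granule list, fell by 2.33 ± 0.41. Of 21 trafficking and adhesion receptors 15 fell and 3 rose (median −1.84). C5ar1, the receptor for complement C5a, fell by 3.6 ± 0.4, Ccr1 by 3.54 ± 0.3 and Cxcr4, which holds cells in marrow, by 2.69 ± 0.35. Itgal, the LFA-1 alpha chain, counted in the blood monocyte list, fell by 3.11 ± 0.39. Of the trafficking and adhesion receptors that rose, Itga6, a laminin-binding integrin, stood at 31.1, 19.7 and 15.8 FPKM against 0.644 to 1.01 (3.61 ± 0.39), without overlap.

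The macrophage genes split within their own list. The C1q chains and Gpnmb rose in FGRS cells, whereas Csf1r and Adgre1 fell. Of 21 macrophage identity genes tested, 9 rose, 7 fell and 5 did not pass (median 0.32), near the 41.3% and 22.2% of all genes. The label of the FGRS libraries is haematopoietic stem cell, not macrophage. Gpnmb, a transmembrane glycoprotein of lipid-laden macrophages (chromosome 6, 49036546 to 49070929), stood at 17, 92.4 and 188 FPKM in FGRS replicates 1, 2 and 3 and at 0.39, 0.266, 0.398 and 1.54 in blood, and rose by 5.43 ± 0.47 (limma adjusted p = 1.54e-09). The 3 chains of complement C1q rose together. C1qb stood at 18.6, 367 and 145 FPKM against 1.95, 2.57, 1.11 and 16.5 (4.52 ± 0.96, adjusted p = 0.00028), C1qc at 13.2, 262 and 99.3 against 0.207, 0.99, 1.02 and 7.38 (4.83 ± 0.89) and C1qa at 10.5, 170.3 and 32.5 against 0.15, 0.684, 0.346 and 4.33 (4.39 ± 0.88). The lowest FGRS value of each was in replicate 1, only slightly above rEC replicate 2 for C1qb. Folr2, a folate receptor of resident macrophages, stood at 1.53, 27.3 and 14.5 FPKM against 0.137 to 0.705 (2.95 ± 0.5). Mrc1, the mannose receptor, stood at 3.83, 66.4 and 37 FPKM against 2.15 to 6.97, and Stab1, a scavenger receptor, at 4.22, 55.8 and 35.8 against 3.15 to 4.57. Both rose (2.35 ± 0.69 and 2.21 ± 0.46), but FGRS replicate 1 lay within the myeloid range, and both calls ended in a fit of the 7 libraries alone (adjusted p = 0.0656 and 0.0514).

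Against these, Csf1r, the receptor for the macrophage growth factor CSF1, stood at 51.2, 108 and 84.9 FPKM in FGRS libraries and 443, 418, 349.6 and 292 in blood, and fell by 2.24 ± 0.55 (limma adjusted p = 0.00114), a call lost with a pseudocount of 0.1 (0.0547). Adgre1, which encodes F4/80, stood at 6.67, 60.1 and 32.5 FPKM against 75.9, 76.1, 75.2 and 83.9 (fell by 1.65 ± 0.65, adjusted p = 0.0301), a call lost without FGRS replicate 1 (0.304) and without any single myeloid library. Apoe, the lipid carrier, fell by 2.25 ± 0.43, from 690.3 ± 232 to 152 ± 76.2 FPKM (n = 4 and 3), and Pla2g7, a lipase that degrades platelet-activating factor, by 4.77 ± 0.53. Msr1, scavenger receptor A, fell by 1.68 ± 0.55, a call lost without FGRS replicate 1 (adjusted p = 0.203). Cd68 (72.9, 301 and 284 against 213 to 229 FPKM), Trem2 (13.1, 159.7 and 121 against 22 to 47.2) and Fcgr1 (7.3, 29.1 and 27.1 against 21.6 to 30.4) did not pass. In each of these 3, FGRS replicate 1 was below all myeloid libraries and replicate 2 or 3 at or above most of them. Timd4, a marker of resident tissue macrophages, was listed at 0 in all 7 libraries.

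The secreted and tissue remodelling list was also mixed: 11 of 23 tested rose, 6 fell and 6 did not pass (median 0.82), shares near those of all genes. Spp1, osteopontin, a secreted matrix protein (chromosome 5, 104435118 to 104441050), stood at 388, 3208 and 3055 FPKM in FGRS libraries and 0.649, 1.02, 2.07 and 2.92 in blood, a rise of 9.28 ± 0.66 (limma adjusted p = 9.05e-11). Arg1, the arginase of alternatively activated macrophages, stood at 7.28, 120.02 and 213 FPKM against 0.102 to 0.381 (5.57 ± 0.62), and Mmp12, macrophage elastase, at 11.8, 69.3 and 76.3 against 0 to 0.211 (5.28 ± 0.35). Lgals1, a galectin, rose by 3.86 ± 0.53 and the stress cytokine Gdf15 by 4.03 ± 0.47. All 5 were lowest in FGRS replicate 1 and still above every myeloid library there. Lgals3, the galectin most used as a macrophage marker, stood at 153, 806 and 826 FPKM against 344, 368, 350.3 and 475 and did not pass (adjusted p = 0.703). Of the falls, Fn1, fibronectin, stood at 3.47, 5.14 and 8.04 FPKM against 318, 294, 494 and 289 (fell by 5.76 ± 0.59), and Chil3, a chitinase-like lectin, and Il1rn, the interleukin 1 receptor antagonist, fell by 5.23 ± 0.79 and 3.62 ± 0.47.

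The share of members lowest in FGRS replicate 1 was 18 of 21 for macrophage identity, 22 of 23 for secreted proteins and 27 of 30 for lysosome genes. Without it, 10 macrophage identity genes rose and 5 fell, and for secreted proteins 11 rose and 3 fell. Summed over the 25 macrophage identity genes, FPKM were 310.03, 1977 and 1324 in FGRS replicates 1, 2 and 3 and 2166, 2252, 1733 and 1381 in the myeloid libraries. The 24 secreted genes summed to 1487, 6231 and 6170.1 and 2097, 2093, 2219 and 3315.

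**Figure D3:**
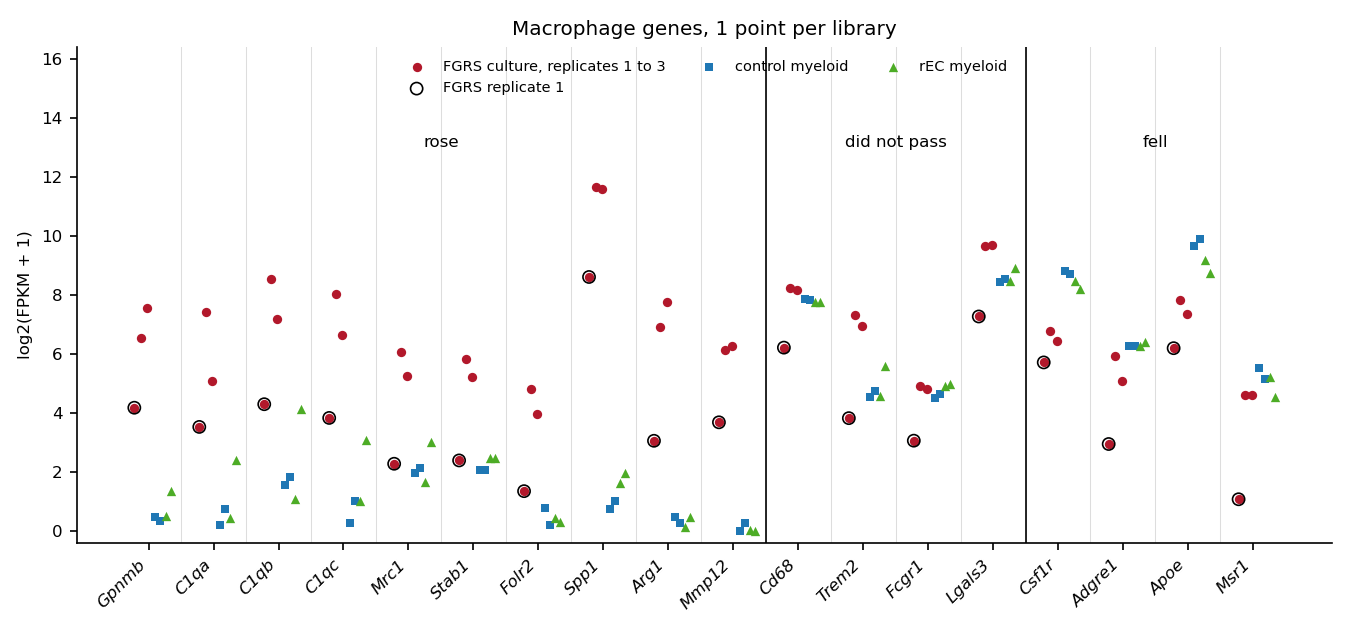
Log2(FPKM + 1) of 18 macrophage genes, 1 point per library, grouped by the test's outcome; the ringed point is FGRS replicate 1. Replicate 1 is the lowest FGRS library for each gene shown, and for Csf1r, Adgre1 and Apoe all 3 FGRS points lie below all 4 myeloid points.

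Lysosome and lipid genes moved in both directions. Of 30 lysosome genes 12 rose and 5 fell (median 0.26), shares near the 41.3% higher and 22.2% lower of all genes. Without FGRS replicate 1, 16 lysosome genes rose and 1 fell. After quantile normalisation 10 rose and 8 fell, and the median was −0.05. Ctsl, cathepsin L, stood at 62.5, 345 and 303 FPKM against 9.85, 9.96, 10.2 and 26.1 and rose by 3.77 ± 0.42 (limma adjusted p = 7.05e-08), and Lgmn, legumain, at 74.7, 335 and 231 against 47.8, 57.5, 35.8 and 58.6 (1.85 ± 0.49). Glb1 and Gaa, which break down galactosides and glycogen, rose by 2.03 ± 0.13 and 2.03 ± 0.19. Tfeb, the factor that drives lysosomal genes, fell by 2.05 ± 0.3. Of 15 lipid handling genes 5 rose and 6 fell (median 0.29, and −0.12 after quantile normalisation). The median was −1.11 against control myeloid cells alone and 0.64 against rEC myeloid cells alone. None of the 8 members with the largest differences passed between the 2 origins. Fabp5, a fatty acid carrier, stood at 126, 417 and 311 FPKM against 22.2, 24.7, 22.4 and 53.4 (3.11 ± 0.48), Plin2, the lipid droplet coat, at 182, 474 and 547 against 76.1, 67.1, 59.95 and 46.7 (2.54 ± 0.3) and Lpl, lipoprotein lipase, at 22, 124 and 131 against 15.8, 15, 21.9 and 9.38 (2.19 ± 0.5). Abcg1, which exports cholesterol, stood at 0.411, 0.638 and 1.04 FPKM against 27.8, 29.8, 32.7 and 23.8 and fell by 4.13 ± 0.25, and Mylip, a ubiquitin ligase, fell by 2.99 ± 0.31.

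Of 22 myeloid transcription factors 11 fell and 2 rose (median −0.88). Klf2, a factor of quiescent leukocytes, stood at 27.4, 23.6 and 19.8 FPKM against 404, 418, 693 and 662 and fell by 4.44 ± 0.65 (limma adjusted p = 3.2e-06), and Cebpd, a C/EBP factor of mature myeloid cells, at 7.53, 10.3 and 12.7 against 123, 133, 212 and 233 (fell by 3.95 ± 0.47). Cebpa, needed for granulocyte and monocyte commitment, fell by 1.49 ± 0.45 and Klf4, a monocyte factor, by 1.82 ± 0.6; the Cebpa call ended with a pseudocount of 0.1 (adjusted p = 0.0667) and the Klf4 call without FGRS replicate 1 (0.0549). Tfec, a relative of Mitf found in macrophages, stood at 14.4, 28.4 and 30.1 against 4.46, 2.56, 2.81 and 13.2 FPKM and rose by 2.09 ± 0.38.

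Of 20 chemokine and cytokine genes tested 11 rose and 5 fell (median 1.23), beside 41.3% higher and 22.2% lower of all genes. The counts were the same without FGRS replicate 1. The summed level of the list went the other way, at 387, 1208 and 1084 FPKM in FGRS replicates 1, 2 and 3 and 1830.2, 1969.5, 1879 and 1516 in blood. Ccl7, a monocyte attractant, stood at 6.4, 139 and 76.2 FPKM in FGRS libraries and was listed at 0 in all 4 blood libraries. Its neighbour Ccl2 stood at 9.46, 158 and 107 FPKM against 2.63, 3.54, 4.25 and 2.96 (3.71 ± 0.56, limma adjusted p = 4.33e-06), and the neutrophil attractant Cxcl2 at 19.9, 138 and 145 against 3.96 to 11.1 (3.42 ± 0.63). Replicate 1 was the lowest FGRS library for all 3 and lay above the blood libraries. Csf1, the ligand of Csf1r, was a member that fell, at 1.63, 2.95 and 4.01 FPKM against 82.7, 71, 71.3 and 45.5, and fell by 4.17 ± 0.41 (adjusted p = 9.51e-09). Ccl6 fell by 3.56 ± 0.72.

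Progenitor genes rose more often than they fell, as did all genes tested (41.3% higher and 22.2% lower). Of 24 myeloid progenitor genes 15 rose and 4 fell (median 1.41). Without FGRS replicate 1, 12 rose, and after quantile normalisation 11 rose (median 0.97). Only 5 of the 24 were under 1 FPKM in all blood libraries, and the list summed to 3125, 3287 and 3102 FPKM in FGRS and 3195, 3026, 2989.9 and 2891 in myeloid libraries. Cd34, the surface sialomucin of progenitors, stood at 212, 85.3 and 70.1 FPKM in FGRS replicates 1, 2 and 3 and 0.287 to 0.555 in blood, a rise of 6.22 ± 0.51 (limma adjusted p = 6.87e-10). Myb, required for definitive haematopoiesis, stood at 91.3, 58.2 and 57.2 FPKM against 0.226 to 0.368 (5.72 ± 0.19), and Adgrg1, an adhesion receptor of stem cells also called GPR56, at 209, 72.7 and 77 against 0.311 to 0.506 (6.24 ± 0.39). In all 3, replicate 1 was the highest and no FGRS value reached down to a myeloid one. Igfbp4, an IGF-binding protein, rose by 6.26 ± 1.01, the secreted skin and progenitor gene Dmkn by 5.68 ± 0.54, Sox4 by 3.97 ± 0.55, Myc by 3.77 ± 0.24 and Cdk6, a kinase of progenitor entry into cycle, by 3.22 ± 0.29. Flt3, the receptor of lymphoid and myeloid progenitors, rose by 1.62 ± 0.61, a call lost without FGRS replicate 1 (adjusted p = 0.203). The growth factor receptors Csf2ra and Csf2rb fell by 2.31 ± 0.37 and 1.48 ± 0.34, while Il3ra, the interleukin 3 receptor, rose by 1.19 ± 0.36, a call lost under quantile normalisation (0.0589).

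Of 26 stem cell genes 14 rose and 1 fell (median 1.08), beside 41.3% and 22.2% of all genes. The FGRS libraries lay above the myeloid ones in 23, beside 46.8% of all genes. In all myeloid libraries 22 of the 26 were under 1 FPKM, and 6 were so in all FGRS libraries. Some of these gaps thus lie near the floor. Without FGRS replicate 1, 12 rose. Replicate 1 was the highest FGRS library in 23 of the 26. Gata2, a zinc finger factor of stem cells, stood at 23.3, 7.34 and 10.01 FPKM against 0 to 0.0577 (3.65 ± 0.42, limma adjusted p = 1.08e-07), Erg, an ETS factor, at 23.8, 9.71 and 10.3 against 0.0833 to 0.368 (3.61 ± 0.43), and Angpt1, a ligand of Tie2, at 30.3, 7.24 and 7.36 against 0 to 0.107 (3.64 ± 0.43). Procr, the endothelial protein C receptor, ran against that order at 5.8, 13.5 and 26.2 FPKM, highest in replicate 3 (3.7 ± 0.59). Hlf, a factor of primitive stem cells, stood at 7.9, 2.02 and 1.79 FPKM against 0.0369 to 0.167 (1.92 ± 0.48), and Mecom at 6.25, 1.83 and 1.49 with 0 listed in all blood libraries. Slamf1, the CD150 marker of long-term stem cells, reached only 0.48, 0.354 and 0.114 FPKM and did not pass (adjusted p = 0.581). Of 14 Hox genes tested 6 rose, all of the A cluster, a share near the 41.3% of all genes. Hoxa9 stood at 19.3, 13.1 and 15.6 FPKM against 0 to 0.0295 (4.06 ± 0.28, adjusted p = 4.45e-11) and Hoxa7 at 11.8, 8.07 and 9.65 against 0.0248 to 0.231 (3.29 ± 0.42).

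Set beside control LKS-SLAM cells, sorted as stem cells, Cd34 averaged 123 ± 78.2 FPKM in FGRS libraries against 118 ± 89.8 (mean ± SD, n = 3 each), and Gata2 13.5 ± 8.53 against 228 ± 56.2. Hlf averaged 3.9 ± 3.46 against 54.3 ± 6.32 and Slamf1 0.316 ± 0.186 against 13.7 ± 3.77. These levels are given for scale, without a test.

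**Figure D4:**
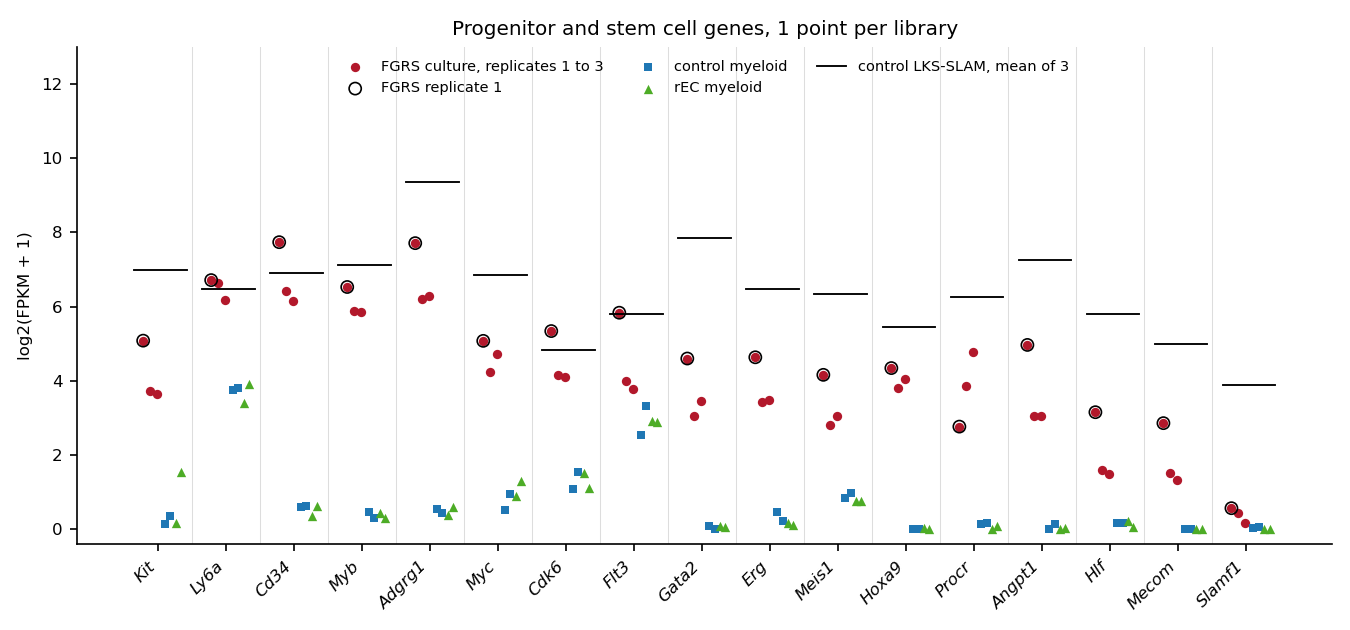
Log2(FPKM + 1) of 17 progenitor and stem cell genes, 1 point per library; the ringed point is FGRS replicate 1 and the black line the mean of 3 control LKS-SLAM libraries. FGRS points lie above the myeloid points for each gene shown, most closely for Slamf1.

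Growth genes gave the most uniform result of the lists. All 36 cell cycle genes rose (median 4.88), and all 36 did so without FGRS replicate 1 and after quantile normalisation. Top2a, topoisomerase II of dividing cells, stood at 168, 98.7 and 116 FPKM against 0.131 to 0.413 (6.67 ± 0.51, limma adjusted p = 2.72e-10). Rrm2, the ribonucleotide reductase subunit made in S phase, stood at 169.7, 154 and 138 against 0.155 to 0.373 (6.97 ± 0.61), Birc5, survivin, at 115, 169.8 and 173 against 0.34 to 0.755 (6.69 ± 0.58), and Ccnb1, cyclin B1, at 80.3, 85.8 and 77.8 against 0 to 0.125 (6.27 ± 0.66). Values within each group differed little beside the gap. Stmn1, a tubulin-binding protein of dividing cells named among the largest rises, rose by 7.83 ± 0.28, with 527 to 641 FPKM in FGRS libraries and 0.719 to 3.03 in blood. The summed level of the list was 3402, 3212 and 3019 FPKM in FGRS replicates 1, 2 and 3 and 126, 132, 108 and 105 in blood. Growth genes were also higher in uncultured control LKS-SLAM cells than in blood: there the cell cycle list summed to 1246 to 2017 FPKM over 3 libraries, ribosome biogenesis to 1658 to 1985 and unfolded protein and amino acid genes to 1691 to 1929, against 316, 345, 268 and 251 and 885, 909, 743 and 799 in blood for the last 2. Cholesterol synthesis genes summed to 273 to 323 in LKS-SLAM cells and glycolysis and hypoxia genes to 2905 to 3116, near the blood libraries (268, 273, 219 and 234, and 2469.5, 2593, 2669 and 4232). These sums are given without a test. Cdkn1a, the p21 inhibitor, rose as well (142, 99.4 and 136 against 8.26 to 14 FPKM, 3.34 ± 0.68), whereas Cdkn1b, p27, fell by 2.78 ± 0.24.

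The promoters of this list, as of several others, were examined in RefSeq sequence (GRCm38.p6), taking the 250 bases before each annotated start. The CCAAT box, written CCAATC and searched on both strands, is the site of the NF-Y factor common in cell cycle promoters. It was found in 17 of 30 list genes with a promoter entry, or 59.4% of their promoters, against 14.6% of all 32851 promoters in the table. In the Top2a promoter (chr11:99024190-99024439, minus strand) and the Cdk1 promoter (chr10:69352913-69353162, minus strand), shown as the members with the largest rise among those with a match, capitals mark the matches, and each reads 5′ to 3′ towards its start.
Top2a: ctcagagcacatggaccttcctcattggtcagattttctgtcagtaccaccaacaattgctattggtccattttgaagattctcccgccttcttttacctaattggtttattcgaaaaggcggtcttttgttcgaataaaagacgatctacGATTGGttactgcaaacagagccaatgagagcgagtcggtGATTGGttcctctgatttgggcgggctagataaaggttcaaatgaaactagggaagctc
Cdk1: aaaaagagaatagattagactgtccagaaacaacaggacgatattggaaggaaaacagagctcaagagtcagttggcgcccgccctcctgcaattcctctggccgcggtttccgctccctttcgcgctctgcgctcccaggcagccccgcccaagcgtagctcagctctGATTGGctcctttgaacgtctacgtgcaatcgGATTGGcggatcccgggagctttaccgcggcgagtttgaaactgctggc
Each has 2 matches on the opposite strand, the nearer one beginning 59 bases before the start in Top2a and 49 in Cdk1. Cdk1, the mitotic kinase, stood at 59.97, 67.8 and 67.6 FPKM against 0 to 0.03 (6.02 ± 0.55).

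All 22 ribosome biogenesis genes rose (median 2.97), 21 of them without FGRS replicate 1. Npm1, nucleophosmin, stood at 1616, 1471 and 1382 FPKM against 90.1, 105, 76.9 and 76.6 (4.09 ± 0.35, limma adjusted p = 1.35e-09), and Nop58 and Ncl, further nucleolar proteins, rose by 4.62 ± 0.31 and 3.48 ± 0.3. Of 23 cholesterol synthesis genes 21 rose, 1 fell and 1 did not pass (median 2.4). Sqle, squalene epoxidase, stood at 75.7, 59.5 and 64.9 FPKM against 3.31, 4.67, 1.91 and 1.68 (4.18 ± 0.27, limma adjusted p = 2.18e-11), with narrow groups far apart. Srebf2, a factor that drives sterol synthesis genes, rose by 1.9 ± 0.24, and Sc5d fell by 0.66 ± 0.2. The CCAATC motif stood in 12 of the 16 cholesterol genes with a promoter entry (63.2% of promoters).

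Of 25 glycolysis and hypoxia genes 20 rose and none fell (median 2.02). Mif, a cytokine and tautomerase gene induced by hypoxia, stood at 1818, 2347 and 2349 FPKM against 35.8, 26.6, 33.3 and 84.2 (5.7 ± 0.34, limma adjusted p = 5.05e-12). The enzymes Tpi1, Pgk1 and Ldha, which act from triose phosphate to lactate, rose by 3.79 ± 0.25, 3.29 ± 0.19 and 3.06 ± 0.25. Pdk1, which closes off pyruvate entry to mitochondria, rose by 3.12 ± 0.28, and Cox6a2, a muscle-type cytochrome oxidase subunit outside the lists, by 6.62 ± 0.59 (147, 93.5 and 108 against 0 to 0.886 FPKM).

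Amino acid genes were the steepest of the stress genes. In the unfolded protein and amino acid list 18 of 25 rose and 2 fell (median 2.44). Phgdh, the first enzyme of serine synthesis, stood at 298, 224 and 250.3 FPKM against 0.0526, 0.311, 0.234 and 0.242 (7.73 ± 0.27, limma adjusted p = 7.59e-16), Shmt2, which passes serine carbon to folate, at 263, 199.9 and 208 against 2.63, 3.57, 2.42 and 4.02 (5.76 ± 0.33), and Psat1 rose by 5.46 ± 0.29. Slc7a5, the large neutral amino acid transporter, rose by 5.24 ± 0.42 and Trib3 by 3.84 ± 0.56. Stc2, a secreted hormone, stood at 38.7, 25.6 and 34.4 FPKM and was listed at 0 in all blood libraries. Atf4, the factor of the amino acid response, rose by 2.2 ± 0.16 and the chaperone Hspa5 by 1.95 ± 0.2, while Ddit3 (27, 41.2 and 55.3 against 50.4 to 56.2 FPKM) and Xbp1 (82.1, 101 and 93.4 against 125 to 148) did not pass.

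Asns, asparagine synthetase, is the textbook target of the amino acid response element and stood at 139, 93 and 106 FPKM against 2.29, 2.83, 1.71 and 4.13 (4.94 ± 0.59). The element was searched as TGATGNAA on both strands. It was found in 6 of 22 list genes with a promoter entry (26.1% of promoters, against 3.45% of all). Of these Asns, Pck2 and Slc7a11 rose, Chac1 fell, and Nupr1 and Herpud1 did not pass. The Asns promoter (chr6:7693210-7693459, minus strand, GRCm38.p6, RefSeq) holds 1 match, in capitals, beginning 23 bases before the start.
Asns: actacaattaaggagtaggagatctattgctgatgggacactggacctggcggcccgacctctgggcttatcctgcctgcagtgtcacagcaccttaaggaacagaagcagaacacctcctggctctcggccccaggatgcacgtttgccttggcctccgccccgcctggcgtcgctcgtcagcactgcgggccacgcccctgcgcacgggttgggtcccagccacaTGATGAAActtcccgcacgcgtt
The same list held the CCAATC motif in 13 of 22 genes (56.5% of promoters), a share like that of the cell cycle and cholesterol lists, and no marked match in the printed promoters overlapped another of the 3 motifs shown.

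Oxidative stress and metal genes mostly rose, 13 of 17 with 3 lower (median 1.82). Mt1, metallothionein, stood at 164, 315 and 324 FPKM against 4.06, 2.27, 3.34 and 14.7 (5.47 ± 0.45, limma adjusted p = 7.68e-10), and Tfrc, the transferrin receptor that brings iron in, at 116, 50.7 and 54.3 against 1.5, 1.8, 1.37 and 0.934 (4.87 ± 0.47). Slc40a1, ferroportin, which lets iron out, stood at 1.79, 5.3 and 3.12 FPKM against 177, 178, 139.7 and 148 and fell by 5.27 ± 0.72 (limma adjusted p = 1.32e-06). The iron importer and exporter genes thus moved in opposite directions, both without overlap.

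**Figure D5:**
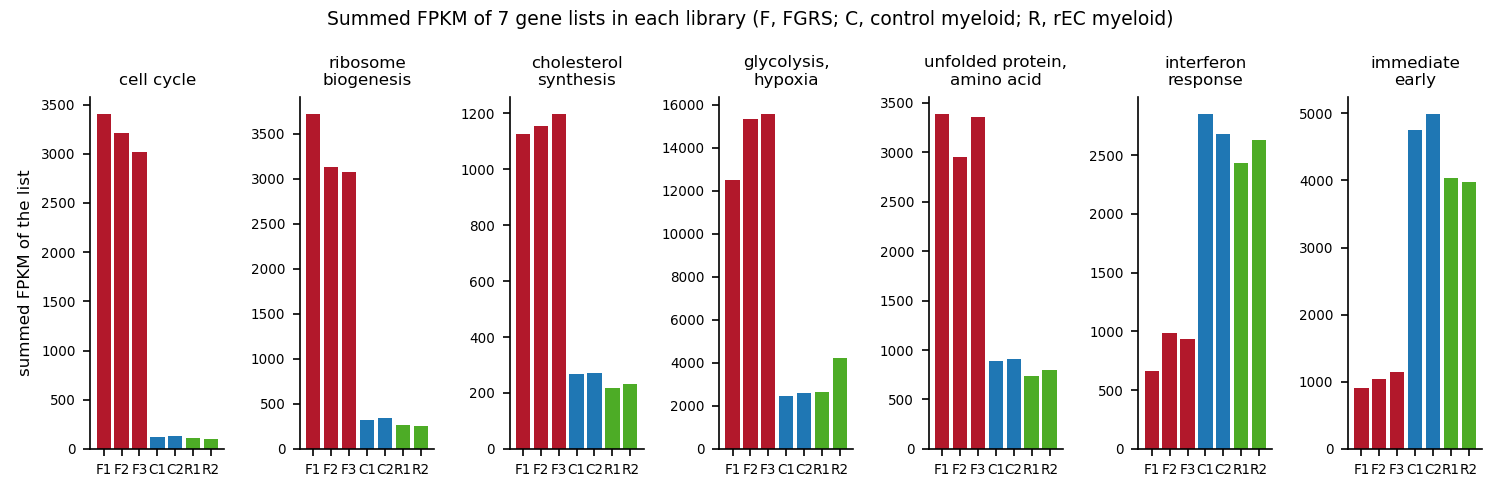
Summed FPKM of 7 gene lists in each library, bars from 0, each list on its own axis. The 3 FGRS bars exceed all 4 myeloid bars in the first 5 lists and lie below them in the interferon and immediate early lists.

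Interferon-stimulated genes were lower in FGRS cells than in blood cells almost as a whole. Of 30 tested 27 fell, 1 rose and 2 did not pass (median −3.08), with the same counts without FGRS replicate 1. The list summed to 662 to 985 FPKM in FGRS and 2431 to 2849 in myeloid libraries. In uncultured control LKS-SLAM cells it summed to 939 to 1181, given without a test, and Oasl2 averaged 20.6 ± 6.76 FPKM there (mean ± SD, n = 3). Oasl2, an antiviral protein of the oligoadenylate synthetase family, stood at 0.433, 0.649 and 0.626 FPKM in FGRS libraries and 147, 129, 137 and 256 in blood (fell by 6.69 ± 0.6, limma adjusted p = 2.72e-09). Irf7, the factor that amplifies type I interferon, stood at 3.21, 3.07 and 3.76 FPKM against 204, 200.1, 194 and 149.7 (fell by 5.43 ± 0.37), and Rtp4 at 0.927, 0.535 and 0.618 against 66.8, 83.2, 66.4 and 77.8 (fell by 5.46 ± 0.48). The FGRS values were low and even, and no library overlapped. Irf9, which carries the interferon signal to DNA, fell by 2.88 ± 0.22, and Isg15, a ubiquitin-like modifier, by 3.44 ± 0.33. Bst2, tetherin, was the member that rose (165, 180.4 and 199 against 84.1, 86.2, 69.5 and 40.7 FPKM, 1.41 ± 0.22).

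The interferon-stimulated response element was searched on both strands as GAAA, any 2 bases and GAAA again. It was found in 13 of 23 list genes with a promoter entry, 48.1% of their promoters against 2.98% of all promoters. Oas3, an oligoadenylate synthetase, and Ifit3, which binds viral RNA complexes, are shown as the named members with the largest falls among those with a match. Capitals mark the matches in the 250 bases before the start, on chr5:120777660-120777909 (minus strand) for Oas3 and chr19:34583279-34583528 (plus strand) for Ifit3, from RefSeq, GRCm38.p6.
Oas3: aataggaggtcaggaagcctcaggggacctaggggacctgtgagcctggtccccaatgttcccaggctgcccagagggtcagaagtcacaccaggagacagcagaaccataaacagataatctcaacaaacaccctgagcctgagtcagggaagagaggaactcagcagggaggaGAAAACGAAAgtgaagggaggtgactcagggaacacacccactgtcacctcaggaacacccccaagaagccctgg
Ifit3: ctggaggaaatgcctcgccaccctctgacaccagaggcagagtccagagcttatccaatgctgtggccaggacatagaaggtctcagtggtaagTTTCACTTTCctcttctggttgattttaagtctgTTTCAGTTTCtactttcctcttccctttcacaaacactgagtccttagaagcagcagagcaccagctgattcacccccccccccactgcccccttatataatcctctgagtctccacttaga
Oas3 has 1 match, beginning 75 bases before the start, and Ifit3 has 2, at 156 and 122. Oas3 stood at 1.13, 0.859 and 0.814 FPKM in FGRS cells and 48.3, 51.5, 63.5 and 91.8 in blood (fell by 5.02 ± 0.42), and Ifit3 at 0.0214, 0.0612 and 0.0983 and 18, 19.6, 18.2 and 8.53 (fell by 3.95 ± 0.27). Oasl2 and Irf7 had no match in this window, and Rtp4 was not among the promoters used. Bst2, the member that rose, had one. In all, 13 motifs were searched, and the 3 shown were chosen after the matches were seen. A match describes the letters of the window and not a bound site.

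Immediate early genes, which are induced within minutes by stress and by tissue handling, were lower in FGRS cells in 10 of 21 and higher in 2 (median −0.41). Without FGRS replicate 1, 6 fell and none rose. Dusp1, a phosphatase of MAP kinases, stood at 29.1, 66.7 and 63.1 FPKM against 1086, 893, 894 and 1041 and fell by 4.27 ± 0.79 (limma adjusted p = 6.33e-05), and Btg2, an antiproliferative gene, by 4.36 ± 0.68. Fos stood at 75.6, 112 and 95.5 FPKM against 777, 916, 583 and 343 (fell by 2.71 ± 0.96), a call lost without FGRS replicate 1 (adjusted p = 0.0544) or rEC replicate 1 (0.0506). Egr1 did not pass (34, 9.4 and 13.8 against 6.66, 15.7, 2.44 and 2.98 FPKM). How long the blood cells were handled before lysis is not given in the sources used here, and its part in these values was not tested. Of 18 cytokine feedback genes 3 rose, 4 fell and 11 did not pass (median −0.04), beside 41.3% higher and 22.2% lower of all genes. Mcl1, a survival factor of neutrophils, fell by 2.69 ± 0.36, Socs3 by 3.18 ± 1.02 and Il6ra by 3.29 ± 0.32. Ccnd1, cyclin D1, rose by 3.92 ± 0.23.

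Markers of other cell types were read in the same libraries. Their counts stand beside 41.3% of all genes tested higher in FGRS cells and 22.2% lower. Mast cell and basophil genes rose in 8 of 9 tested and fell in 1 (median 2.55). Mcpt8, a basophil protease, stood at 39.6, 65.3 and 46.5 FPKM against 0 to 0.32 (5.44 ± 0.8, limma adjusted p = 3.15e-06), Cpa3, a mast cell carboxypeptidase, at 17.2, 21.9 and 24.6 against 0 to 0.227 (4.35 ± 0.51), and Tpsb2, tryptase, at 4.26, 17.1 and 37.5 with 0 listed in all blood libraries. Tpsb2 and the chymase Cma1 (5.95, 22.9 and 37.9 FPKM) were lowest in replicate 1 and highest in replicate 3. The summed level of the 10 genes was 82.6, 155 and 167 FPKM in FGRS and 269.7, 264, 141 and 405 in myeloid libraries, where nearly all came from Hdc, histidine decarboxylase (269, 263, 139 and 404 FPKM), the member that fell (6.97, 8.15 and 8.04 in FGRS). Megakaryocyte and platelet genes rose in 5 of 9 and fell in 1 (median 1.78). Pf4, platelet factor 4, stood at 58.2, 818 and 665 FPKM against 0.529 to 0.806 (7.61 ± 0.92, adjusted p = 2.1e-07), and Ppbp, its chemokine neighbour, at 5.14, 30.2 and 28.4 against 0.151 to 1.23. Both were lowest in replicate 1, while Itga2b (13, 7.18 and 6.86 against 1.36 to 2.27 FPKM) and Gp9 (4.44, 3.69 and 2.6 against 0.132 to 0.668) were highest there. The list summed to 97.3, 864 and 709.7 and 11.7, 13.1, 14.2 and 9.36. The part of such cells in the FGRS values was not tested.

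Endothelial genes, relevant to the origin of the FGRS cells and to the HUVEC layer, rose in 6 of 16 tested and fell in 1 (median 0.67). The share that rose was near the 41.3% of all genes. Egfl7 stood at 104, 65.1 and 73.5 FPKM against 0 to 0.136 (6.22 ± 0.19, limma adjusted p = 1.2e-16), and Pecam1, CD31, at 41, 19.4 and 19.7 against 2.07 to 7.29. Both are also made by stem cells, at 84.2 ± 13.9 and 27.1 ± 7.31 FPKM in control LKS-SLAM libraries. The members that rose were Pecam1, Tie1, Eng, Esam, Egfl7 and Icam2. Other members were near 0: Cdh5, VE-cadherin, stood at 0.61, 0.261 and 0.215 FPKM and Cldn5 at 0, 0.0605 and 0. Of the 19 list genes, 10 were under 1 FPKM in all FGRS libraries and 14 in all myeloid libraries. The list summed to 221, 149 and 159 FPKM in FGRS and 39, 39.4, 30.7 and 24.6 in myeloid libraries. Stromal genes summed to 6.93, 6.87 and 5.07 and 9.61, 7.23, 10.8 and 7.7, with 9 of 11 under 1 FPKM in all FGRS libraries.

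Class II and dendritic genes fell in 5 of 13 and rose in 1 (median −1.55), beside 22.2% lower and 41.3% higher of all genes. Batf3, a factor of cross-presenting dendritic cells and monocytes, stood at 0.833, 3.19 and 2.21 FPKM against 32.4, 25.4, 37 and 18.8 (fell by 3.29 ± 0.32), and Cd74, the class II chaperone, at 293, 281 and 217 against 976, 961, 722 and 513, which did not pass (adjusted p = 0.0793). B cell genes summed to 40.1, 49.8 and 36 FPKM in FGRS and 20.7, 49.3, 9.33 and 7.37 in myeloid libraries, and T and NK genes to 31.6, 15.5 and 16.1 and 20.7, 23.6, 10.3 and 2.95, with 1 member rising in each list, Cd79b and Lck. Eosinophil genes fell in 3 of 9, beside 22.2% of all genes, and rose in none. Globin genes were listed at 0 in all FGRS libraries. Hbb-b1, a beta globin, was named among the largest falls and stood at 35.2, 594, 18.7 and 211 FPKM in the myeloid libraries, highest in replicate 2 of each origin. Reads can be shared between globin copies.

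The FGRS libraries were also compared with each myeloid origin alone, and both contrasts share the FGRS libraries. Against control myeloid cells alone 8181 genes passed (58.1%), with 37.8% higher in FGRS cells and 20.3% lower. Against rEC myeloid cells alone 8297 passed (58.9%), 39.4% higher and 19.6% lower, and 7587 genes passed against both in the same direction. The rEC and control myeloid groups differed in 32 genes (0.227%; limma adjusted p under 0.05; 526 at an unadjusted p under 0.05), 9 higher in rEC cells (0.0639%) and 23 lower (0.163%). That count ran from 13 without control replicate 1 to 78 without rEC replicate 1, and was 15 without either of the other 2 myeloid libraries. List medians against the 2 origins were 4.88 and 4.89 for cell cycle, −3.86 and −4.14 for mature neutrophil genes, 3.31 and 3.07 for primary granules and 0.27 and 0.36 for macrophage identity. They changed sign for lipid handling genes (−1.11 against control and 0.64 against rEC cells) and were −0.81 and −0.06 for immediate early genes. The lipid list had 5 members that rose and 6 that fell, so its median rests on the few between them. Its 8 members with the largest differences ran from −0.43 (Plin2) to 0.55 (Fabp5) in rEC minus control cells, and none passed there. List medians were −3.1 and −2.11 for blood monocyte genes. There the origins themselves differed in Ace, an angiotensin-converting enzyme of nonclassical monocytes. Ace stood at 199.8 and 227 FPKM in control and 40.1 and 24.5 in rEC myeloid libraries, and at 0.123, 0.0374 and 0.0604 in FGRS libraries. It fell in FGRS cells by 6.28 ± 0.29 against both origins together (limma adjusted p = 7.92e-14).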

How the data were processed

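RNA sequencing libraries were made without strand information, per the labels' protocols. The authors deposited FPKM values per gene for 30 libraries. Per the submitters' processing notes the tools were Trimmomatic 0.36, TopHat2 2.1.0 and Cufflinks 2.2.1, with bcl2fastq 2.17 and FastQC 0.11.5, and the build was mm10. Without strand, a gene and its antisense partner cannot be told apart, and FPKM give no read counts, so no counting interval is given. The table held 23060 genes, of which 3744 were at 0 in all libraries. Gene positions came from GENCODE (mm10).

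From the deposited FPKM, log2(FPKM + 1) was fitted with limma 3.58.1 (R 4.3.3) with a mean-variance trend and 1 mean for each of 11 groups over 29 libraries, which share 1 estimate of the spread. The library whose group the labels do not give was left out. A gene was tested where 2 or more libraries reached 1 FPKM, with Benjamini-Hochberg adjustment over all 14083 and a threshold of 0.05. The procedure was tested on simulated data. Replicates are separate libraries of one label, so p-values measure the spread between libraries, which may be technical.

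The comparison, the 36 gene lists and the tests were chosen with earlier results of these data known. Genes are named by a rule: the 15 largest rises and 15 largest falls without overlap whose higher group averaged 20 FPKM or more, up to 8 members of each list by size of difference, and every conversion factor and sorting marker. Other genes named, such as Csf1r, Adgre1, Apoe, Camp, Bst2, Cdh5 and Srebf2, were chosen after their values were seen. Of 674 list entries 671 were in the table (Ly6g, Acod1 and Hbb-bt were not). Alternatives were another pseudocount (0.1), other filters, quantile and median-of-ratios scaling, array quality weights, fits of the 7 libraries alone and with a replicate block, and leaving out libraries. Promoters were the 250 bases before each start in RefSeq (GRCm38.p6), searched on both strands. Motifs searched besides those in the results were sterol elements (TCACNCCAC and an exact form), the CHR element (TTTGAA), the hypoxia core (GCGTG), the antioxidant core (TGANNNNGC), a C/EBP site (TTGCGCAA), E2F sites (TTTGGCGC or TTTCCCGC) and the E box (CACGTG). Results for some genes are not reported here.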

Additional observations from a re-analysis of the deposited data

Results flagged for a closer look

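Ace, which encodes an angiotensin-converting enzyme of nonclassical monocytes, differed between the 2 myeloid origins that the FGRS cells were compared with. It was lower in rEC than in control myeloid cells by a log2 difference of −2.72 in limma's test of that difference itself, so the contrast of FGRS cells with blood was smaller against rEC than against control cells.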

How the results depend on the processing

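The counts of FGRS against myeloid cells stayed within 1.5 times of those reported under every alternative run, except that median-of-ratios scaling gave 4716 lower genes against all myeloid cells, 4331 against control and 4376 against rEC cells. The count for rEC against control myeloid cells was 6 with a pseudocount of 0.1, 7 with a filter at 5 FPKM, 93 with no filter, 67 after quantile normalisation, 49 after median-of-ratios scaling, 1 in the 7 libraries alone, 105 without rEC LKS-SLAM replicate 2 and rEC B cell replicate 1, 368 with array quality weights, and 13 to 78 when single libraries were left out. With the filter set within the 7 libraries, chosen after seeing the data, it was 6. The cause was not tested.

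Same-numbered libraries did not deviate together throughout (r of −0.032 and −0.008 for FGRS and control, 0.229 and 0.242 for FGRS and rEC, 0.075 for control and rEC), so the numbers were not taken as pairs. With a replicate block in the 7 libraries 9095 genes passed against all myeloid cells (6010 higher, 3085 lower), 8310 against control and 8485 against rEC cells, and 1 between the myeloid groups; Lgals3 was at −0.12.

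Directions that turned were those of genes that had not passed, except Mdm2, which had risen. Without FGRS replicate 1 the log2 differences were 0.07 for Ly6c2, −0.05 for Runx1, 0.4 for Cd68, 0.11 for Fcgr1, 1.82 for Camp, 0.76 for Ngp and 0.13 for Ltf. Camp was at 0.39 without control replicate 1 and 0.53 without rEC replicate 2, Lgals3 at −0.1 and −0.12 without FGRS replicates 2 and 3, and Cldn5 at −0.01 without FGRS replicate 2. Over single libraries left out, the differences ran up to 0.24 for Runx1, 1.1 for Lgals3 and 0.03 for Cldn5, and down to −0.54 for Ly6c2, −0.62 for Cd68, −0.81 for Fcgr1, −1.89 for Camp, −2.57 for Ngp and −2.41 for Ltf. Quantile normalisation put Runx1 at −0.22, Lepr at −0.09 and Cldn5 at −0.05, and median-of-ratios scaling put Runx1 at −0.4, Mdm2 at −0.05 and Lgals3 at −0.27. The cause was not tested. FPKM carry no read counts, so the number of reads behind low values is unknown.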
